A study of Homo sapiens with 9 samples.

Results

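The protein-coding complement genes C3, C5, C1R, C1S, CFB, CFI, CD46, CD55 and CD59, 9 in all, were followed in HCT116 cells, a human colorectal carcinoma line. The deposited table holds 33861 genes in 9 libraries, and each of the 9 names occurs in it once. The genes were chosen by name, with earlier results of these libraries known, and no cut on a level or a fold change is part of that choice. Their values in the 3 groups are therefore given as a description, and the adjusted p-values below only place each gene among all genes tested. The libraries were ribosomal RNA-depleted and fall into 3 groups of 3. The cells labelled NC are the control of the study. The labels neither spell NC out nor give its time in culture. The activin cells received 100 ng/mL activin A for 5 days, and the activin + HGF cells received the same activin treatment and then 20 ng/mL hepatocyte growth factor (HGF) for another 5 days. No group was kept those added days without HGF, so HGF and the longer culture cannot be told apart, and "after HGF" below names the comparison of activin + HGF with activin only. In the deposited table the columns of the activin + HGF group carry only the name of the cell line and a number. They were assigned through the sample descriptions, and the group rests on the titles and treatment labels, so every value for activin + HGF depends on those labels being right. All groups were 1 cell line grown in medium with serum, and nothing in the sources says whether the libraries of a group came from separate cultures, so p-values measure only the spread between these libraries, which may be technical.

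Complement is a cascade of plasma proteins that tags and lyses cells. C1R and C1S are the proteases of the first component, C3 is the protein on which all routes of activation converge, CFB is the protease subunit of the alternative pathway, and C5 starts the terminal lytic complex. Host cells protect themselves with membrane regulators. CD55 speeds the decay of the convertases that cleave C3 and C5, CD46 is a cofactor for the cleavage of deposited C3b by the soluble protease CFI, and CD59 blocks the last step of the lytic pore. Hepatocytes make most plasma complement, and epithelial cells of the gut also make C3 and CFB and carry the membrane regulators.

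Levels are given as the authors' FPKM (fragments scaled to gene length and library size), which allow genes to be compared, and as CPM (counts scaled to library size with TMM factors, not to gene length), on which the test across all genes rests. Gene counts summed to between 57453977 and 77016167 per library, and 3 counts, taken as the floor, were worth at most 0.0551 CPM. A gene was called when edgeR's quasi-likelihood test gave a Benjamini-Hochberg adjusted p under 0.05 over 20988 genes and it differed by 1 or more on the log2 scale. SE is the standard error of a log2 fold change. The choice of scaling matters here. With library totals in place of TMM, the median log2 fold change of all tested genes moved from -0.04 to -0.38 for activin + HGF against activin and from -0.03 to -0.30 for activin + HGF against NC. The share of called genes that were higher moved with it, from 47.9% to 15% and from 52.6% to 33.4%. The third comparison, activin against NC, moved less, from 59.5% to 68.7%. FPKM values also rest on library totals, so levels after HGF look lower in FPKM than in CPM. Replicate 1 of activin + HGF had the lowest TMM factor (0.783, against up to 1.17), and results of the 9 genes that rest on it are given with and without it. Of 7 epithelial markers, all but VIL1 were well expressed, with summed FPKM of 555 to 875 per library, and the summed FPKM of 5 leukocyte markers was 0.26 to 0.44 in NC, 0.86 to 1.28 in activin and 0.46 to 1.02 in activin + HGF libraries. Of these, PTPRC, the common leukocyte marker, stayed at or below 0.02 FPKM, while LYZ, the lysozyme gene, was called higher with activin (6.68-fold, edgeR adjusted p = 0.0134) and in activin + HGF against NC (3.86-fold, edgeR adjusted p = 0.0349).

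CD55, the decay-accelerating regulator, rose at both steps of the treatment. Its FPKM were 4.97, 4.65 and 5.3 in NC cells, 17.99, 14.44 and 19.05 in activin cells and 51.37, 36.84 and 31.29 in activin + HGF cells, so that no library of one group reached a library of another. In CPM the means were 31.9 ± 1.91 (SD, n = 3), 104 ± 6.77 (SD, n = 3) and 320 ± 115 (SD, n = 3). With activin CD55 was 3.25-fold higher than in NC (log2 fold change 1.70, SE 0.233, edgeR adjusted p = 0.00101), after HGF it was 3.09-fold higher than with activin (1.63, SE 0.232, edgeR adjusted p = 0.00486), and activin + HGF stood 10.0-fold above NC (3.33, SE 0.247, edgeR adjusted p = 2.4e-05). Among the 20988 genes ordered by p, CD55 was number 53 in this last comparison. Without replicate 1 of activin + HGF, where CD55 was highest, the log2 fold change was 1.301 against activin and 2.998 against NC, still called in both. In bulk RNA, more expressing cells and more RNA per cell cannot be told apart. By mean FPKM, CD55 lay at or above 70.7% of tested genes in NC cells, 90.7% with activin and 96% with activin + HGF.

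CD59, which blocks the membrane attack complex, was not called with activin and was called higher after HGF, by an amount that depended on 1 library. Its FPKM were 8.06, 6.76 and 9 in NC cells, 6.95, 8.19 and 12.33 with activin and 25.27, 10.61 and 12.92 with activin + HGF. The first activin + HGF library stood far above the other two, and in FPKM the second lay below the highest activin library. In CPM, CD59 gave a log2 fold change of 0.13 for activin against NC (SE 0.359, edgeR adjusted p = 0.859), 1.26 for activin + HGF against activin (SE 0.364, edgeR adjusted p = 0.0469) and 1.38 for activin + HGF against NC (SE 0.365, edgeR adjusted p = 0.0163). Without replicate 1 of activin + HGF these last values were 0.67 (edgeR adjusted p = 0.126) and 0.79 (edgeR adjusted p = 0.0418), both below the fold required. The call against activin was kept in 6 of 18 alternatives. Of the fits with a library left out it was kept only when replicate 2 of activin + HGF was left out and was lost without any of the other 5 libraries. The call against NC was also lost without NC replicate 1 or NC replicate 2.

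CD46, the cofactor of CFI, was not called in any comparison. Its FPKM were 6.45, 5.28 and 6.78 in NC cells, 4.85, 2.89 and 5.4 with activin and 6.86, 5.57 and 4.55 with activin + HGF. The log2 fold changes were -0.59 with activin (SE 0.246, edgeR adjusted p = 0.127), 0.79 with HGF after activin (SE 0.246, edgeR adjusted p = 0.0603) and 0.20 for activin + HGF against NC (SE 0.245, edgeR adjusted p = 0.582). In CPM the activin libraries, at 29.5 to 47.6, lay below all NC libraries (52.5 to 66.0) and all activin + HGF libraries (52.4 to 91.3). In FPKM the activin libraries overlapped both other groups.

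**Figure D1:**
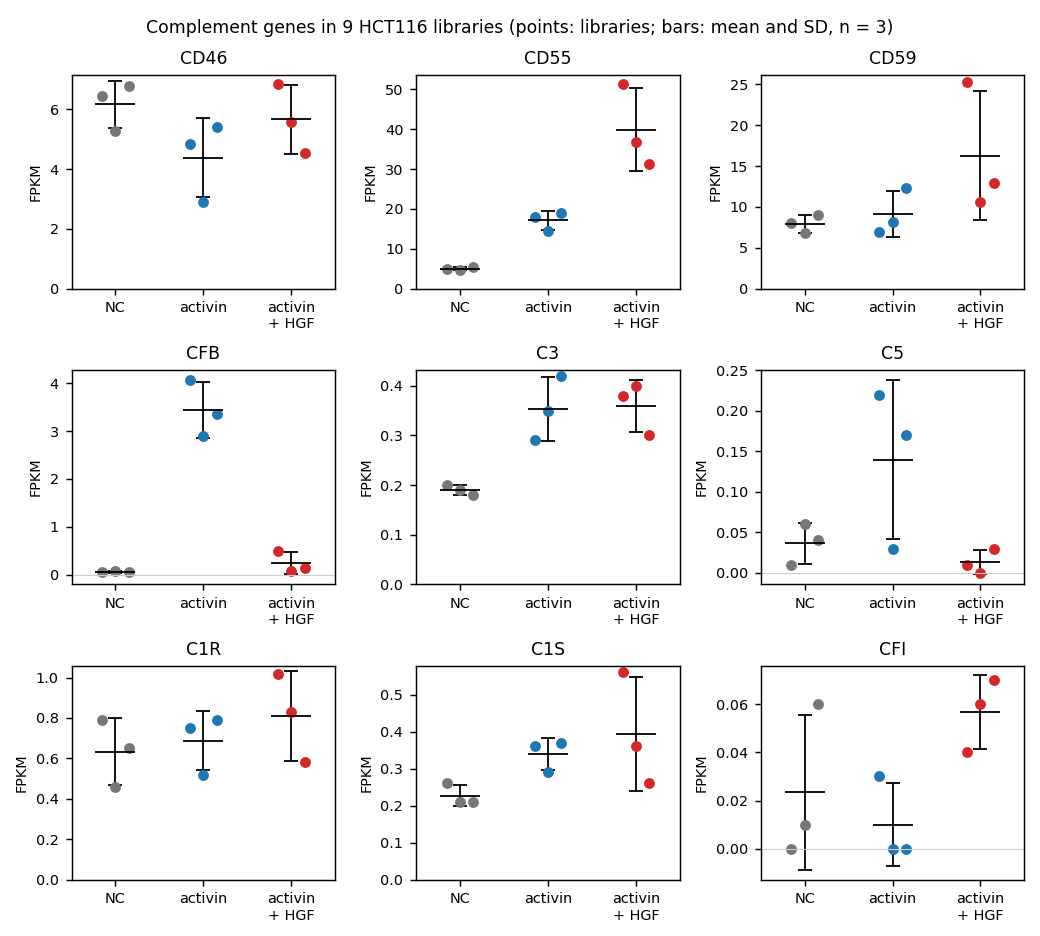
FPKM of the 9 complement genes (vertical axes, each starting at 0 or just below) in the libraries of NC, activin and activin + HGF cells. Points are libraries, horizontal bars are means and vertical bars are SD (n = 3). CD55 rises at each step without overlap, CFB is high only in the activin libraries (2.9 to 4.07 FPKM), and the activin + HGF mean of CD59 is drawn up by 1 library at 25.27.

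The order of the 3 membrane regulators within a library, which no scaling between libraries can move, differed between NC and treated cells. In NC cells CD55 was the lowest of the 3 in FPKM, and in every treated library it was the highest. The FPKM ratio of CD55 to CD46 was 0.811 ± 0.0606 (SD, n = 3) in NC cells, 4.08 ± 0.801 (SD, n = 3) in activin cells and 6.99 ± 0.449 (SD, n = 3) in activin + HGF cells, and the 3 groups did not overlap. The ratio of CD55 to CD59 was 0.631 ± 0.0511 (SD, n = 3) in NC cells, 1.97 ± 0.55 (SD, n = 3) in activin cells and 2.64 ± 0.745 (SD, n = 3) in activin + HGF cells. For this ratio NC lay below all treated libraries, while the activin libraries (1.55 to 2.59) and the activin + HGF libraries (2.03 to 3.47) overlapped. Of the FPKM summed over the 9 genes, CD55 made up 23.8% to 26.3% in NC, 45.5% to 50.7% in activin and 59.7% to 67.3% in activin + HGF libraries.

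CFB, the serine protease subunit of the alternative pathway convertase, had the largest change among the 9 genes, up with activin and down again after HGF. Its counts were 18, 27 and 24 in NC libraries, 1415, 1009 and 1212 in activin libraries and 198, 30 and 61 in activin + HGF libraries. The activin libraries stood far apart from the rest, and replicate 1 of activin + HGF was the highest of its group. With activin CFB rose 51.5-fold (log2 fold change 5.69, SE 0.711, edgeR adjusted p = 0.000584), which placed it number 89 by size among the 1424 genes called higher. After HGF its log2 fold change was -3.36 (SE 0.627, edgeR adjusted p = 0.0107), and -4.62 without replicate 1 of activin + HGF (edgeR adjusted p = 0.00133). In activin + HGF cells CFB remained 5.01-fold above NC (2.32, SE 0.638, edgeR adjusted p = 0.0194). The value against NC was 1.06 (edgeR adjusted p = 0.0498) without replicate 1 of activin + HGF. Its call was lost when any 1 of the NC libraries was left out (edgeR adjusted p = 0.0507 to 0.0709), with log2 fold changes of 2.21 to 2.44. A readthrough gene of C2 and CFB (ENSG00000244255) spans CFB on the same strand, and it held 7 to 21 counts in NC, 0, 0 and 218 in activin and 0, 56 and 57 in activin + HGF libraries. How reads were shared between both genes is not known. With their counts summed, the log2 fold changes were 5.07, -3.02 and 2.05, all called.

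The RefSeq promoter windows of CFB and CD55 are shown because these genes had the largest changes and moved differently after HGF. Each is the 250 bases before the annotated start, 5′ to 3′ on the gene's strand, with capitals marking matches to the motifs searched.

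CFB, GRCh38.p14, chr6:31945845-31946094, plus strand: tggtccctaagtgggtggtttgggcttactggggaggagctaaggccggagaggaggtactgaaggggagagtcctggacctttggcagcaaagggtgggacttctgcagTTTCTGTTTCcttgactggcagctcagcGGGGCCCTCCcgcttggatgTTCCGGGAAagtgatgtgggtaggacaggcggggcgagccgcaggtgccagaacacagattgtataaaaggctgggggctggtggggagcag

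CD55, GRCh38.p14, chr1:207321428-207321677, plus strand: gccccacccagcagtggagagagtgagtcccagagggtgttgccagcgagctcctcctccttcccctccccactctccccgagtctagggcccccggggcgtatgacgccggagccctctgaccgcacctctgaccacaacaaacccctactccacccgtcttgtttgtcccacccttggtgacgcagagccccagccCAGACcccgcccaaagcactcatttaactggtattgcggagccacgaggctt

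The windows of 7 of the 9 genes were in the RefSeq table, 13 windows in all, and C3 and C1S had none. The motifs were searched on both strands over 300 bases, which add 50 bases after the start. They were the kB motif, the interferon-stimulated response element GAAANNGAAA, the gamma-activated sequence TTCNNNGAA, the AP-1 motif TGANTCA and the SMAD core CAGAC. Of 35116 promoter windows, 11.3%, 3.57%, 7.66%, 7.71% and 45.3% held a match in that order. In the CFB window the response element matched on the opposite strand at position -140 from the start, the kB motif at -112 and the gamma-activated sequence at -92, and a SMAD core lay at 26 after the start. The CD55 window held only a SMAD core, at -52. Of the other members, 1 of the 4 CD59 windows held 3 AP-1 matches and a SMAD core, and overlapping CD59 windows shared a gamma-activated sequence. Each C1R window held a SMAD core, and 1 of them also held a gamma-activated sequence. A SMAD core also lay in 1 of the C5 windows. The windows of CD46 and CFI held none of the 5 motifs. The CFB window lies inside the CFB gene model of the deposited table, which starts further upstream. The CD55 window lies partly inside the CD55 gene model, which starts at 207321532, and that part includes its SMAD core. A match is a string of letters and shows no binding.

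C3, the central component, was low in all libraries and was called higher in activin + HGF cells than in NC cells. Its counts were 114, 125 and 134 in NC, 182, 213 and 270 in activin and 270, 300 and 215 in activin + HGF libraries. All treated libraries lay above all NC libraries in CPM, and the activin and activin + HGF libraries overlapped. The log2 fold change was 0.81 with activin (SE 0.28, edgeR adjusted p = 0.0707), 0.42 with HGF after activin (SE 0.277, edgeR adjusted p = 0.342) and 1.23 for activin + HGF against NC (SE 0.282, edgeR adjusted p = 0.00816), which was called. With library totals the last value was 0.96, below the fold required. In FPKM, C3 was 0.353 ± 0.0651 (SD, n = 3) in activin cells and 0.36 ± 0.0529 (SD, n = 3) in activin + HGF cells, against 0.19 ± 0.01 (SD, n = 3) in NC cells. CFB lay below C3 in every NC library and above it in every activin library, and after HGF it lay above C3 in replicate 1 only. The FPKM ratio of CFB to C3 was 0.299 ± 0.0619 (SD, n = 3) in NC cells, 10.1 ± 3.40 (SD, n = 3) in activin cells and 0.652 ± 0.593 (SD, n = 3) in activin + HGF cells. The summed FPKM of 8 hepatocyte markers was 0.75 to 0.95 in NC, 2.47 to 3.44 in activin and 3.64 to 4.29 in activin + HGF libraries, with SERPINA1 at most 3.11 and ALB at most 0.26. Of the 8, TTR and FGB were too low to be tested. Called higher were 2 with activin and 6 in activin + HGF against NC, against 6.78% and 11.3% of all tested genes. After HGF no hepatocyte marker was called, against 3.87% higher among all tested genes. ALB, APOA1, APOA2 and FGA were still higher without overlap in CPM (edgeR adjusted p = 0.0623 to 0.245), and FGG and SERPINA1 overlapped. Of all tested genes 32.7% did not overlap in this comparison. Apart from SERPINA1, the called markers held at most 79 counts in any library. The summed FPKM of 4 fibroblast markers was 2.27 to 2.51 in NC, 4.58 to 6.04 in activin and 2.83 to 3.62 in activin + HGF libraries. Nearly all of this sum was COL1A1 (2.22 to 2.45, 4.24 to 5.8 and 2.77 to 3.48). COL1A2 and DCN stayed at or below 0.03 FPKM and PDGFRB at or below 0.34. The part of these markers in the results was not tested.

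C1R and C1S, the proteases of the first component, reached at most 1.02 and 0.56 FPKM. C1R had 310, 210 and 341 counts in NC, 324, 222 and 351 in activin and 495, 430 and 288 in activin + HGF libraries, and the groups overlapped in every comparison. C1S had 117, 108 and 129 counts in NC, 175, 141 and 186 in activin and 310, 209 and 144 in activin + HGF libraries. C1S was called in 1 comparison, activin + HGF against NC (log2 fold change 1.10, SE 0.359, edgeR adjusted p = 0.0397). With 1 library left out at a time, this call was kept only without replicate 3 of activin + HGF, and without replicate 1 of activin + HGF the value was 0.63 (edgeR adjusted p = 0.129). For C1R the same comparison gave 0.67 (SE 0.311, edgeR adjusted p = 0.125). The gene model of C1S overlaps 30219 bp of LPCAT3 on the opposite strand, and that of C1R overlaps 2907 bp of C1RL on the same strand. How strand and overlaps were treated in counting is not given in the sources used here, so reads in these stretches cannot be told apart.

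C5 and CFI, the first terminal component and the protease that inactivates C3b, were close to the floor. C5 had 4, 30 and 23 counts in NC, 107, 15 and 83 in activin and 8, 0 and 15 in activin + HGF libraries. CFI had 0, 3 and 28 counts in NC, 12, 0 and 0 in activin and 18, 27 and 28 in activin + HGF libraries. Neither was called by edgeR in any comparison, and replicate counts of both genes ranged widely within groups. After HGF the CPM of the groups did not overlap for either gene, for C5 only through the scaling. Activin replicate 2 and activin + HGF replicate 3 both held 15 counts of C5, at 0.240 and 0.234 CPM. C5 gave the lower values (log2 fold change -2.87, SE 1.18, edgeR adjusted p = 0.132) and CFI the higher ones (2.78, SE 1.68, edgeR adjusted p = 0.298).

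**Figure D2:**
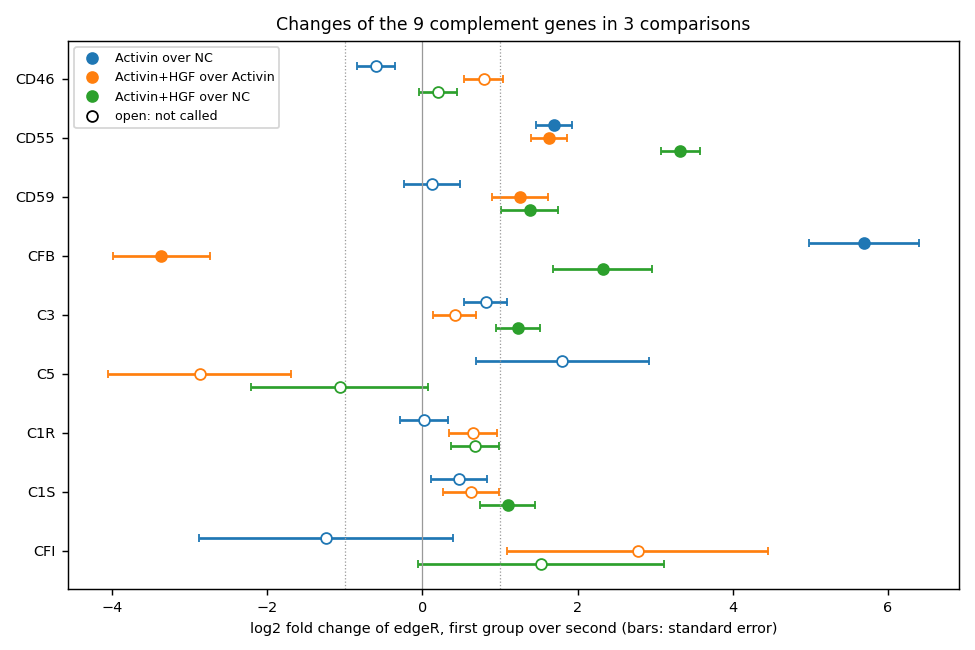
Log2 fold changes of the 9 complement genes from edgeR (horizontal axis; bars are standard errors) in activin over NC, activin + HGF over activin and activin + HGF over NC. Filled points are called and open points are not, and dotted lines mark -1 and 1. CD55 is filled and positive in all 3 comparisons, and CFB is positive with activin (5.69) and negative after HGF (-3.36).

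All 9 genes passed the filter on low counts, although C5 reached 10 counts in 6 and CFI in 5 of 9 libraries. With activin 2 of the 9 were called higher and 0 lower, against 6.78% higher and 4.62% lower among all tested genes. After HGF 2 were called higher (CD55 and CD59) and 1 lower (CFB), against 3.87% and 4.21%. In activin + HGF against NC 5 were called higher (C3, C1S, CFB, CD55 and CD59) and 0 lower, against 11.3% and 10.2%. In the first and second comparison, the calls of CD55 and CFB were kept under the other scalings, filters, tests and left-out libraries. At an adjusted p under 0.01, CFB after HGF was no longer called. The groups did not overlap in CPM for 5, 6 and 5 of the 9 genes in these comparisons, where 42.2%, 32.7% and 53.8% of all tested genes did not. These counts depend on the scaling. In the authors' FPKM, CD46 overlapped in the first and second comparison and CD59 in the second. C5 tied at 0.03 in the second, and in the last CFB tied at 0.07 and C1S at 0.26. The share of all tested genes without overlap in FPKM was not computed. The median log2 fold change of the 9 genes was 0.47, 0.65 and 1.23, against 0.02, -0.04 and -0.03 over all tested genes. The activin libraries enter both the first and the second comparison, and the NC libraries the first and the last.

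Of 47 further complement genes, 30 were in the table and 25 passed the filter on low counts. With activin 6 were called higher and 0 lower, after HGF 1 higher and 1 lower, and in activin + HGF against NC 6 higher and 1 lower. Among all tested genes the shares called higher and lower were 6.78% and 4.62%, 3.87% and 4.21%, and 11.3% and 10.2% in these comparisons, so that after HGF the list was near the background. Its median log2 fold changes were 0.56, 0.35 and 0.92, against 0.02, -0.04 and -0.03 over all tested genes. With activin, 5 of 10 tested genes listed under recognition and activation of the classical and lectin pathways were called higher. These 5 were C2, FCN3, COLEC12 and the nearly identical C4A and C4B, which may not count as separate genes. Of the other 15 genes 1 was called higher, a difference that was not tested. The classical proteases C1R and C1S, counted with the 9 members and not here, were not called with activin (log2 fold changes 0.02 and 0.47). C2, the classical counterpart of CFB and its neighbour on chromosome 6, was higher by 1.15 on the log2 scale with activin (SE 0.342, edgeR adjusted p = 0.042). With activin + HGF against NC it was higher by 1.68 (SE 0.346, edgeR adjusted p = 0.00489). After HGF C2 was not called (0.53, SE 0.336, edgeR adjusted p = 0.319).

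C4A and C4B encode the fourth component and are nearly identical, so how reads split between them is not certain. C4A had 42 to 54 counts in NC, 147 to 153 in activin and 50 to 76 in activin + HGF libraries, and was called higher with activin and lower after HGF. C4B was called higher with activin (log2 fold change 1.79) and was not called after HGF (-0.97, edgeR adjusted p = 0.16). FCN3, a ficolin of the lectin pathway, had 0, 4 and 9 counts in NC, 21 to 39 in activin and 53 to 71 in activin + HGF libraries. COLEC12, a scavenger receptor with a collectin domain, was at 0 in every NC library. It had 55 to 88 counts with activin and 4, 27 and 8 with activin + HGF. Against the floor of 3 counts in the smallest NC library, its mean CPM was at least 19.6-fold higher with activin and 4.02-fold higher with activin + HGF. The latter mean rests mostly on replicate 2, and replicate 1, at 0.0735 CPM, lay close to that floor of 0.0490 CPM. Because low counts were often multiples of 4, 3 counts may be too low a floor for these bounds.

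CFD, the protease that cleaves CFB, reached a mean of 8.91 ± 1.61 (SD, n = 3) FPKM in NC, 15.6 ± 2.58 (SD, n = 3) in activin and 19.0 ± 3.55 (SD, n = 3) in activin + HGF cells, and was called in activin + HGF against NC (log2 fold change 1.38, SE 0.235, edgeR adjusted p = 0.00182). C1RL, a relative of C1R with 305, 1045 and 949 counts in activin + HGF libraries, was called lower in activin + HGF against NC (-1.06, SE 0.326, edgeR adjusted p = 0.0318). Its CPM was 5.60 in replicate 1 of activin + HGF, against 15.2 and 14.8 in replicates 2 and 3 and 23.0 to 25.7 in NC. How far this call rests on replicate 1 was not examined. Of the receptors, ITGAX, a subunit of complement receptor 4, was higher by 3.22 with activin (SE 0.293, edgeR adjusted p = 0.000114) and by 3.05 with activin + HGF against NC, while its partner ITGB2 had at most 33 counts. CR2, the C3d receptor, was higher by 1.45 after HGF (SE 0.238, edgeR adjusted p = 0.00699) and by 1.23 in activin + HGF against NC. The other genes above 1 FPKM in some group were not called. CLU, a soluble regulator, passed the adjusted p but not the fold in activin + HGF against NC (0.92, edgeR adjusted p = 0.00792), SERPING1, the C1 inhibitor, reached at most 1.68 FPKM, C5AR1, a C5a receptor, varied between 0.5 and 2.75 FPKM in NC cells alone, and C1QBP, a C1q-binding protein of mitochondria and the cell surface, passed the adjusted p but not the fold with activin (-0.99, edgeR adjusted p = 0.00816).

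CD55 and CD46 lie on chromosome 1, 207321532 to 207386804 and 207752054 to 207795513 in the deposited coordinates, 365 kb apart in the cluster of complement regulator genes, with CR2 67.4 kb beyond the end of CD55. Of these neighbours CD55 was called at both steps, CR2 only after HGF and CD46 at neither. C1S (chromosome 12, 6988259 to 7071032) and C1R (7080214 to 7092493) face each other 9.18 kb apart, and their FPKM ratio, C1S to C1R, was 0.37 ± 0.0754 (SD, n = 3) in NC, 0.502 ± 0.0486 (SD, n = 3) in activin and 0.477 ± 0.0628 (SD, n = 3) in activin + HGF cells. CFB lies on chromosome 6 from 31945650 to 31952084, C3 on chromosome 19 from 6677704 to 6730562, C5 on chromosome 9 from 120952335 to 121050275, CFI on chromosome 4 from 109740694 to 109802179 and CD59 on chromosome 11 from 33703010 to 33736425.

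Across the 9 libraries, log2(CPM + 0.5) of CD55 was most like that of PMEPA1 (Pearson r = 0.995) among 13823 genes with a mean CPM of at least 1, and that of CFB most like that of OPTN (r = 0.984). The nearest genes were CALML6 for C3 (r = 0.986), ZNF333 for C1R (r = 0.972), H2BC4 for C1S (r = 0.984), SOCS5 for CD46 (r = 0.984), the pseudogene TOMM20P4 for CD59 (r = 0.989), LINC01694 for C5 (r = 0.95) and PDP1 for CFI (r = 0.948). The 9 points share the 3 groups, and each r is the highest of many, so these values are a description only.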

How the data were processed

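The authors deposited, for 33861 Ensembl genes in each library, unnormalized read counts and FPKM normalized by the authors to library size and gene length. The submitters' processing notes name cutadapt 1.9, HISAT2 2.0.4 and StringTie 1.3.4d. The counting step and the genome build are not given in the sources used here. Of 32930 gene IDs shared with GENCODE 29, 99.9% overlapped that gene's GRCh38 position, so coordinates were read as GRCh38.

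Counts were fitted with edgeR 4.0.16 (filterByExpr, TMM, glmQLFit and glmQLFTest, R 4.3.3) over all 9 libraries, with a mean per group and no block. Each standard error is the log2 fold change over the root of its F. On simulated counts with 200 of 20043 genes changed by a log2 fold change of 2 in activin against NC, 73% were called, and 3.95% of calls were false. The changed genes were drawn only from genes above a minimum mean count. C5 and CFI lay below it, so the 73% does not cover genes as low as these. Replicate libraries of a group were distinct beyond counting error, with a chi-square over degrees of freedom of 60.6 to 276. Low counts were multiples of 4 more often than an even spread gives, so a single count may not be an independent fragment, and counting floors cover counting error only. Library depth is given with the results.

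The 9 members, the further complement genes, the motifs and the markers were chosen with earlier results of these data known. A gene of the further list is not reported here. Named genes were all 9 members, further complement genes called in any comparison or with a mean of at least 1 FPKM in some group, and for each member the gene of most similar pattern. Alternatives were other scalings, filters and thresholds, a replicate block, fits on the compared groups alone, DESeq2 1.42.0, limma 3.58.1 on log2(FPKM + 0.1) or log2(FPKM + 1), counts divided by 4, and each library left out. Summing CFB with its readthrough gene was added after seeing the data. Promoter sequences are from RefSeq (GRCh38.p14).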

Additional observations from a re-analysis of the deposited data

How the results depend on the processing

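The calls of CD55 in all 3 comparisons and of CFB with activin and after HGF were kept in each of 18 alternatives that changed the scaling, filter, test, samples or counts. At the stricter threshold of an adjusted p under 0.01, CFB after HGF (edgeR adjusted p = 0.0107) was not called. For CD55 the log2 fold changes ranged from 1.60 to 1.78, 1.15 to 1.80 and 2.74 to 3.50 in the 3 comparisons, and for CFB from 2.06 to 5.90 and from -4.62 to -1.85. Among the values of single members under the alternatives, 427 kept direction and call, 37 lost the call, 1 gained it (C5 after HGF with DESeq2, adjusted p = 0.0496) and 8 turned in direction, all of them in genes not called. CD46 in activin + HGF against NC turned to -0.0945 with library totals, -0.13 with limma on log2(FPKM + 0.1) and -0.115 with limma on log2(FPKM + 1), and ranged from -0.0602 to 0.354 with a library left out. Against NC, activin gave -0.0899 to 0.241 for C1R, -6.17 to 1.20 for CFI and -0.0635 to 0.355 for CD59 with a library left out.

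The 5 members called in activin + HGF against NC became 3 with library totals or only the groups compared, 1 with limma at either pseudocount, 2 at an adjusted p under 0.01 and 2 to 5 with a library left out. After HGF the 3 members called became 1 at an adjusted p under 0.01. Of the further complement genes, the 6 called with activin became 1 with limma on log2(FPKM + 1), 3 at an adjusted p under 0.01 and 3 to 5 with a library left out. The 2 called after HGF became 1 without the low-count filter, with only the groups compared, with the replicate block, with limma on log2(FPKM + 1) or at an adjusted p under 0.01, 4 with DESeq2 or with counts divided by 4, and 1 to 2 with a library left out. The 7 called in activin + HGF against NC became 2 with limma on log2(FPKM + 1). A filter of 1 CPM in 3 libraries gave no value for C5 and CFI. The causes of these shifts were not tested. Same-numbered libraries deviated from their group means with correlations of -0.10 to 0.20. Libraries of different numbers were not compared in this way, so whether the numbers pair libraries was not settled. With the replicate block the calls of CD59 after HGF (1.17, edgeR adjusted p = 0.0842) and of C1S in activin + HGF against NC (1.03, edgeR adjusted p = 0.0575) were lost. How depth and the number of libraries each limit the calls was not tested.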
